A study of Mus musculus with 4 samples.

Results

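The genes described here are the motors and tracks of the microtubule cytoskeleton: kinesins, cytoplasmic dynein subunits and tubulins, in mouse fibroblasts that carry or lack the zinc transporter Zip13. Members were all genes with a single platform symbol that starts with Kif and a digit, with Tuba, Tubb or Tubg, with Dync and a digit, or with Dynl. This gave 70 of the 22180 genes in the table, taken from 78 rows, with the brightest row kept for the 8 genes that had more than 1. By role they were 12 mitotic kinesins, 13 transport kinesins, 12 other kinesins, 5 subunits of cytoplasmic dynein-1, 2 of dynein-2, 5 dynein light chains, 5 alpha tubulins, 8 beta tubulins, 2 gamma tubulins, 4 gamma-tubulin complex proteins and 2 pseudogenes (Kif4-ps and Tubb2a-ps2). Another 11 rows list a matching symbol together with other genes and were left out. In a fit over all rows 3 of them fell and 2 rose, the latter each naming an alpha tubulin or gamma-tubulin complex gene beside an unrelated gene.

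Total RNA of fibroblasts was measured on 4 Affymetrix Mouse Gene 2.0 ST arrays, 2 from WT mice and 2 from Zip13KO mice, which the series text writes as Zip13-/-. Zip13 is encoded by Slc39a13. The labels name the samples biological replicates, but give no strain, age, tissue of origin or passage, and leave unstated if each came from its own animal or culture. The p-values therefore measure only the spread between these samples, and that spread may be technical. Values are log2 of the deposited RMA intensity. A difference is the mean of Zip13KO less that of WT, on the log2 scale, with the standard error (SE) of a limma fit over all 22180 genes, and a gene passed the test at a Benjamini-Hochberg adjusted p under 0.05. With 2 arrays a group the smallest two-sided p of an exact permutation test is 0.333, so every call rests on the moderated fit. Where an array is left out, its group keeps 1 sample and the spread is taken from the remaining pair and the fit across genes, so the lone sample is treated as equally variable.

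Microtubules are hollow polymers of alpha and beta tubulin that start from gamma-tubulin rings at the centrosome and the Golgi. Kinesins mostly walk towards the outward-growing plus end, and cytoplasmic dynein walks back to the minus end and gathers the Golgi beside the nucleus. In dividing cells another set of kinesins builds and moves the spindle. Vertebrates have several tubulin isotypes, encoded by separate genes that differ mainly in their acidic tails.

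Median array intensity lay between 94.5 and 96.1. Slc39a13 read 8.94 and 8.85 in WT and 8.89 and 8.98 in Zip13KO, a difference of 0.04 (SE 0.08, adjusted p = 0.820). Its probes may lie outside the deleted stretch, whose place is not known here, so this does not check the labels. Of 12 fibroblast markers, Lum and Fap did not exceed the array median on 2 arrays, and the other 10 did. Of the 12, 6 fell and Pdgfra rose, and their summed intensity was 20690 to 21708 in WT and 16092 to 16840 in Zip13KO. The part of this shift in the values below was not tested. No marker of multiciliated (9 measured), epithelial (8) or endothelial cells (7) passed in limma, with 0, 1 and 1 at an unadjusted p under 0.05, and of 7 macrophage markers 1 rose and 2 fell.

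Of the 70 members, 13 fell and 3 rose on the Zip13KO arrays. Over all 22180 genes, 17.1% passed, 10.1% lower and 7.00% higher; among the members 22.9% passed, 18.6% lower and 4.29% higher. The 3 beta and alpha tubulin genes Tubb2a, Tubb2b and Tuba1a and the dynein light chain Dynlt3 fell by 0.60 to 0.83, while Kif21a rose by 0.58. The other 11 differences were smaller than 0.5, and no member differed 2-fold. The median difference of the members was -0.021, against -0.0034 over all genes. The arrays of the groups did not overlap for 25 members on the lower side and 13 on the higher side, whereas this held for 27.3% and 24.1% of all genes (51.5% in either direction). Of the 70, 59 exceeded the array median on 2 or more arrays. Kif2b, Kif5c, Kif9, Kif12, Kif27, Dync1i1, Dynlrb2, Tubal3, Tubg2 and both pseudogenes did not. With such dim genes left out of the fit, 3978 of 13819 genes passed, 2351 of them lower. Beside these, 19 of 59 members passed, 15 of them lower. A larger share thus passed among the genes kept by this filter than over all genes, and most members were kept. A gene above the median in only 1 group is kept too, so the filter itself can raise that share.

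**Figure D1:**
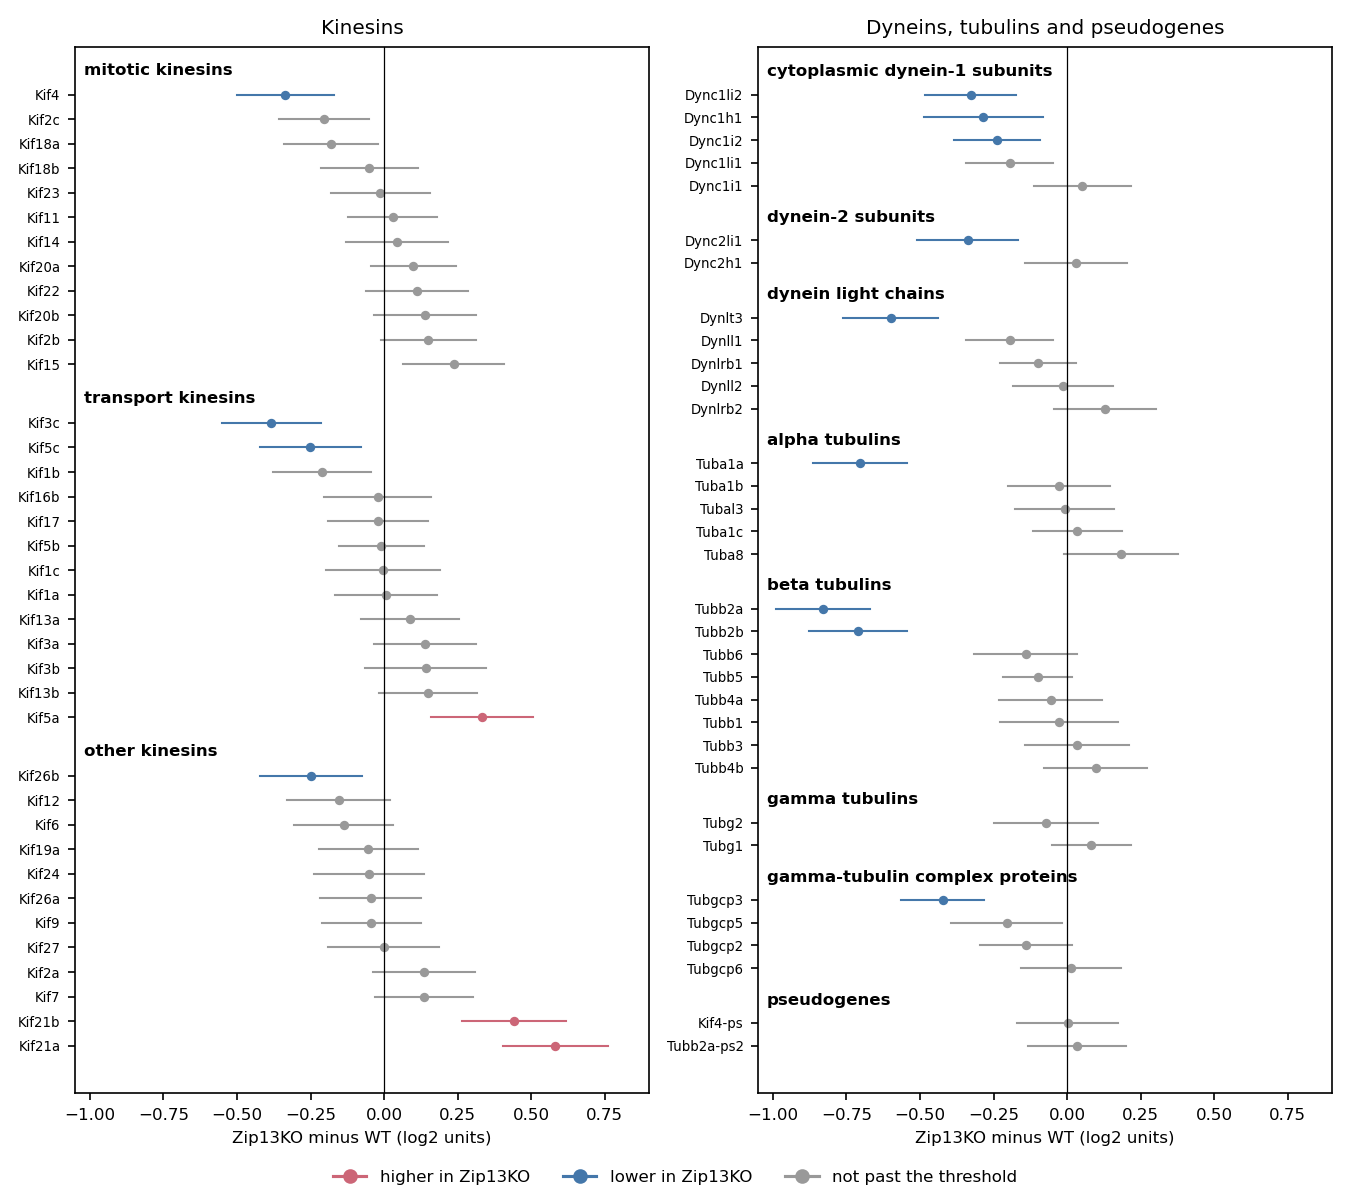
Difference between Zip13KO and WT (x axis, log2 units) for each of the 70 members, grouped by role, with bars for the 95% interval of the limma fit. Blue members fell (13), red members rose (3) and grey members did not pass. The lowest is Tubb2a at -0.83 and the highest Kif21a at 0.58.

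Among the tubulins, 3 isotypes fell and no member rose in limma, nor did any reach an unadjusted p under 0.05 on the higher side (0 of 19). A row naming Tuba4a together with Stk16 was not a member. It read 9.92 and 9.90 in WT and 10.66 and 10.57 in Zip13KO. The row was higher by 0.70 (adjusted p = 0.00342 in the fit over all rows), and its signal cannot be assigned to 1 gene. Tubb2a and Tubb2b, beta tubulins abundant in neurons and made in many other cells, fell, as did Tuba1a, an alpha tubulin of the same kind. The other 12 alpha, beta and gamma tubulins did not pass, nor did 3 of 4 gamma-tubulin complex proteins. Of 19 tubulin and complex genes 4 fell, or 21.1%, against 10.1% of all genes. With dim genes left out, 4 of 17 fell, beside 2351 of 13819 genes. At an unadjusted p under 0.05, 5 of the 19 were lower, where 14.8% of all genes were lower and 11.1% higher.

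Tubb2a read 8.75 and 8.81 in WT and 7.93 and 7.97 in Zip13KO. Both Zip13KO arrays were low and the groups did not overlap. The difference was -0.83 (SE 0.08, adjusted p = 2.32e-07), or 1.78-fold lower. Tubb2b, its neighbour on chromosome 13 with no protein-coding gene between them, read 8.23 and 8.21 in WT and 7.56 and 7.45 in Zip13KO. Its Zip13KO values again lay wholly below those of WT, at -0.71 (SE 0.08, adjusted p = 2.76e-06). A second row of Tubb2b, which was not used in the fit over genes, read 7.34 and 7.46 in WT against 6.73 and 6.86 in Zip13KO, a difference of -0.61. Tubb2a and Tubb2b are nearly identical in coding sequence, so their rows may share signal, and how far each fell on its own is uncertain.

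Tuba1a read 10.67 and 10.73 in WT and 10.11 and 9.88 in Zip13KO. The Zip13KO arrays differed from each other, but both were below WT, at -0.70 (SE 0.08, adjusted p = 2.02e-06), or 1.63-fold lower. Its second row read 8.11 and 8.27 in WT and 7.63 and 7.37 in Zip13KO, a difference of -0.69. Tuba1a lies beside Tuba1b and Tuba1c on chromosome 15 and their coding sequences are nearly identical, so some signal may be shared. Neither of their rows passed. Tuba1c, also widely expressed, read 10.67 and 10.49 in WT and 10.66 and 10.57 in Zip13KO, with overlapping groups and a difference of 0.03 (95% interval -0.12 to 0.19). Tuba1b, a widely expressed alpha tubulin, was at -0.03 (95% interval -0.20 to 0.15).

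Tubb5, a beta tubulin of most dividing cells, read 12.86 and 12.79 in WT and 12.68 and 12.77 in Zip13KO. Zip13KO was lower without overlap, but the difference of -0.10 (95% interval -0.22 to 0.02) did not pass (adjusted p = 0.284), except after a further quantile normalization (0.00926). Tubb6 was at -0.14 with overlapping groups and passed without WT replicate 2 (-0.27, adjusted p = 0.0371) and without Zip13KO replicate 2 (-0.25, adjusted p = 0.00524). Tubb3, the beta tubulin used as a neuronal marker, was at 0.03, Tubb4a at -0.06, Tubb4b at 0.10 and the platelet isotype Tubb1 at -0.03. The muscle and testis isotype Tuba8 was at 0.18 and passed without WT replicate 1 (0.32, adjusted p = 0.0313), and Tubal3 was at -0.01. Of 12 neuron markers Stmn2 and Map2 fell, and both also stand in the list of microtubule-associated proteins below. The other 10 did not pass, 1 of them being higher at an unadjusted p under 0.05 in limma. The summed intensity of the 12 was 1409 to 1521 in WT and 1265 to 1303 in Zip13KO. Fewer cells of a type and less RNA per cell cannot be told apart in these bulk samples, and the part of this marker shift in the tubulin differences was not tested.

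**Figure D2:**
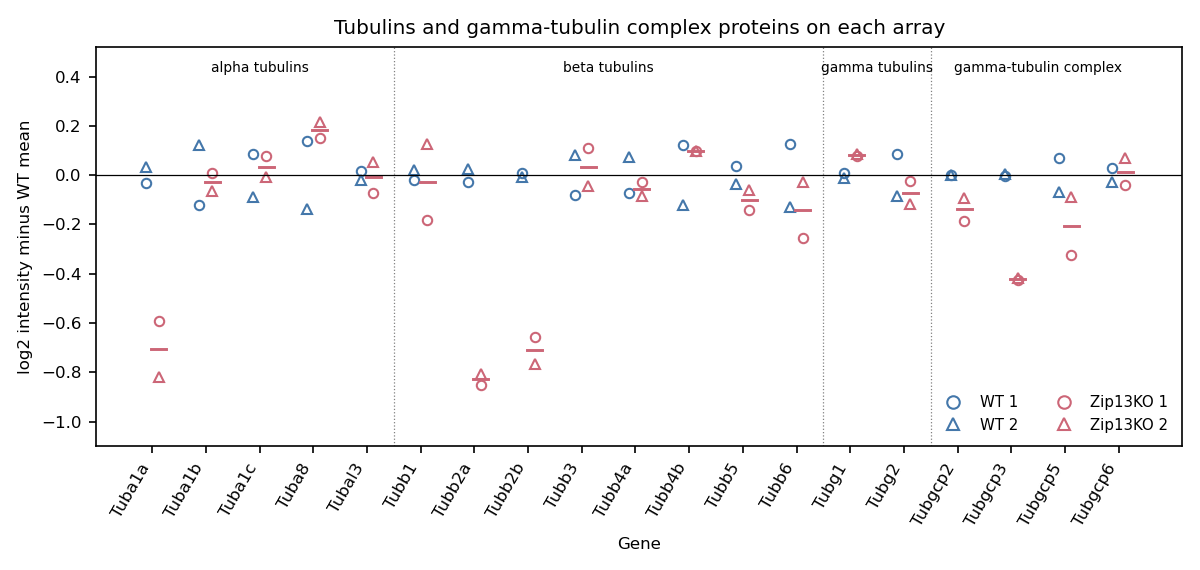
Log2 intensity of each tubulin and gamma-tubulin complex gene on each array, as the distance from the mean of the WT arrays (y axis). Circles are replicate 1 and triangles replicate 2, blue for WT and red for Zip13KO, and the red line is the Zip13KO mean. Tuba1a, Tubb2a, Tubb2b and Tubgcp3 lie clear of WT at -0.70, -0.83, -0.71 and -0.42.

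At the level of microtubule nucleation, Tubgcp3, a core subunit of the gamma-tubulin ring, fell. It read 10.14 and 10.15 in WT and 9.72 and 9.73 in Zip13KO. The replicates lay close together and the groups far apart for their spread, at -0.42 (SE 0.07, adjusted p = 1.53e-04). Gamma tubulin itself, Tubg1, read 10.56 and 10.54 in WT and 10.63 and 10.64 in Zip13KO. Both Zip13KO values were above WT, but the difference of 0.08 (95% interval -0.05 to 0.22) did not pass (adjusted p = 0.495). Tubg2, the second gamma tubulin gene, was at -0.07. The gamma-tubulin complex gene Tubgcp4 shares its row with Trp53bp1 and was not a member. That row read 9.35 and 9.34 in WT and 9.76 and 9.84 in Zip13KO, higher without overlap at 0.46. It passed in the fit over all rows (adjusted p = 0.0150), but its signal cannot be assigned to 1 gene. A row naming Tubgcp6 with Selenoo was at -0.18 and did not pass there. The ring subunits Tubgcp2, Tubgcp5 and Tubgcp6 were at -0.14, -0.21 and 0.01, and Tubgcp5 passed without Zip13KO replicate 2 (-0.32, adjusted p = 0.0158).

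The stretches before the start sites of Tubb2a and Tuba1a, which fell, and of Tuba1c, which did not pass, are shown for comparison. Each runs from 120 bases before to 30 bases after the annotated start, on the gene's strand, in RefSeq's GRCm38.p6. They lie at chr13:34077979-34078128 (minus strand), chr15:98953472-98953621 (minus strand) and chr15:99029771-99029920 (plus strand). Capitals mark the TATA box letters TATAAA on either strand.
Tubb2a: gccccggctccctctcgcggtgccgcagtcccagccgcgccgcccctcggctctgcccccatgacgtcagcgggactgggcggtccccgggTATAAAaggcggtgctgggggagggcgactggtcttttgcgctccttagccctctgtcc
Tuba1a: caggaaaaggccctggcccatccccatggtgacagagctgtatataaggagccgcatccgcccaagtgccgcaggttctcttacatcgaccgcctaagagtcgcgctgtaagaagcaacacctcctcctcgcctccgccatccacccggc
Tuba1c: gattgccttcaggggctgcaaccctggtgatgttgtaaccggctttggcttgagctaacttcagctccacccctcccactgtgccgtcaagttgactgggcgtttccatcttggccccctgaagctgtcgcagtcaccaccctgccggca
Only Tubb2a holds this exact string in these windows. Near variants, such as the letters TATATAAG in Tuba1a, were not searched or marked. Over 300 bases, from 250 before to 50 after the start, 13.6% of all 32851 RefSeq promoters hold TATAAA, as do 2 of 15 promoters of tubulin and gamma-tubulin complex genes. Of the 70 members 55 had at least 1 promoter in that table, with 61 entries in all.

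Mitotic kinesins taken by the symbol rule, motors of the spindle, showed 1 call in 12. Cenpe, a spindle kinesin that the rule does not take, is counted among the partner genes. It was lower without overlap at -0.26 (adjusted p = 0.0357 in limma). Kifc1 and Kifc5b, also outside the rule, were at -0.08 and -0.15 and did not pass. Kif4, a chromosome-bound motor that shapes the central spindle, fell, and the other 11 did not pass. The median difference of the 12 was 0.036, with values from -0.34 to 0.24. That median depends on single arrays: it was 0.106 without WT replicate 1, 0.105 without Zip13KO replicate 1, -0.035 without WT replicate 2 and -0.023 without Zip13KO replicate 2.

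Kif4 read 9.42 and 9.26 in WT and 8.94 and 9.07 in Zip13KO. The groups did not overlap, and the difference was -0.34 (SE 0.08, adjusted p = 0.00501), or 1.26-fold lower. The call was lost on leaving out WT replicate 1 (-0.26, adjusted p = 0.0848) and in a fit over all rows of the table (0.0889). Kif15, which helps keep spindle poles apart, read 9.16 and 9.04 in WT and 9.23 and 9.45 in Zip13KO. Zip13KO was higher without overlap at 0.24 (SE 0.08), short of the threshold (adjusted p = 0.0575). It passed on leaving out WT replicate 1 (0.30, adjusted p = 0.0444) or Zip13KO replicate 1 (0.34, adjusted p = 0.00297), with robust variance (0.0481), with dim genes left out (0.0387) and after a further quantile normalization (0.0119).

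Kif2c, which takes microtubules apart at centromeres, read 9.96 and 9.89 in WT and 9.65 and 9.79 in Zip13KO. It was lower without overlap at -0.21 (adjusted p = 0.0640) and passed without Zip13KO replicate 2 (-0.28, adjusted p = 0.0123), with dim genes left out (0.0428) and after a further quantile normalization (0.0464). Kif18a, which dampens chromosome movement, was at -0.18. Kif20a, a motor of cytokinesis that also acts at the Golgi, read 10.65 and 10.61 in WT and 10.66 and 10.81 in Zip13KO, a difference of 0.10 (95% interval -0.04 to 0.24). The spindle motor Kif11 was at 0.03, the central spindle motor Kif23 at -0.01 and the chromosome motor Kif22 at 0.11, all with overlapping groups. Kif20b was at 0.14 and passed without Zip13KO replicate 1 (0.24, adjusted p = 0.0492). Kif14, Kif18b and Kif2b were at 0.04, -0.05 and 0.15.

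Within each group the mitotic kinesins differed together between arrays. WT replicate 1 read above WT replicate 2 for 12 of 12 and Zip13KO replicate 2 above Zip13KO replicate 1 for 11 of 12. Over all genes these orders held for 60.6% and 54.6%, and over the 70 members for 52 and 51. The median step was -0.11 from the first WT array to the second and 0.15 between the Zip13KO arrays, both larger than the median difference between groups. The same held for 20 of 23 markers of dividing cells in each group. Among those markers Ccnb2 (0.42), Bub1b (0.30) and Pcna (0.26) rose and Cdc20 fell by 0.32. Ccnb2 and Cdc20 passed under every alternative, while Pcna did not pass in the fit over all rows and Bub1b did not pass without WT replicate 2 or Zip13KO replicate 2, among others. Their summed intensity was 28877 to 30139 in WT and 29170 to 31308 in Zip13KO, and its part in the kinesin values was not tested. The count of mitotic kinesins past the threshold was 3 without Zip13KO replicate 1 and 2 without Zip13KO replicate 2, against 1 with all arrays.

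Many genes of mitosis carry a cell cycle homology region (CHR), with the letters TTTGAA, near the start site, often a short way after a CCAAT box, which binds NF-Y. Both were searched on both strands. A CHR was found in 9 of 11 mitotic kinesin promoters of 300 bases (81.8%), in 1 of 17 entries of 14 transport motors (5.88%, Kif1a) and in 17.9% of all promoters. Between 50 bases before and 50 after the start, 7 of the 11 held one, as did 4.94% of all promoters. CCAAT was found in 7 of the 11 and in 37.4% of all, and 6 held both. Kif18a and Kif2b held no CHR anywhere in the 300 bases. Kif4, the mitotic member that fell, is shown with Kif11, Kif18b and Kif23, which did not pass. All 4 carry both motifs, with capitals on the CHR and CCAAT letters of either strand. They run from 120 bases before to 30 after the start, at chrX:100625945-100626094 (plus), chr19:37376262-37376411 (plus), chr11:102925095-102925244 (minus) and chr9:61946770-61946919 (minus) in GRCm38.p6.
Kif4: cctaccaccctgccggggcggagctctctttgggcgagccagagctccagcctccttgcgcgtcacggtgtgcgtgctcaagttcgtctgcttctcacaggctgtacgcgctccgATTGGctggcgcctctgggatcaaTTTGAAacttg
Kif11: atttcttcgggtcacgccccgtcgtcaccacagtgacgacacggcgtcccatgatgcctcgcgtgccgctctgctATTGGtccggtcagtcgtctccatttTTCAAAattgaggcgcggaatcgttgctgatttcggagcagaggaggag
Kif18b: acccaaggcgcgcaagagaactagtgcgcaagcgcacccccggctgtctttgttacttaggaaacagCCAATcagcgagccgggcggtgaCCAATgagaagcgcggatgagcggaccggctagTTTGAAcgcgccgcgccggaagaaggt
Kif23: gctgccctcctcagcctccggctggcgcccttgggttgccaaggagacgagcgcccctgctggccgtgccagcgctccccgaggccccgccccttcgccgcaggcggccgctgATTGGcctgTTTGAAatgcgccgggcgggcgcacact
With the start site counted as base 1, the CHR begins at base 20 in Kif4, 4 in Kif18b and 3 in Kif23, and at base -19 in Kif11, where it lies on the opposite strand. These are matches of letters, and no binding was measured.

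**Figure D3:**
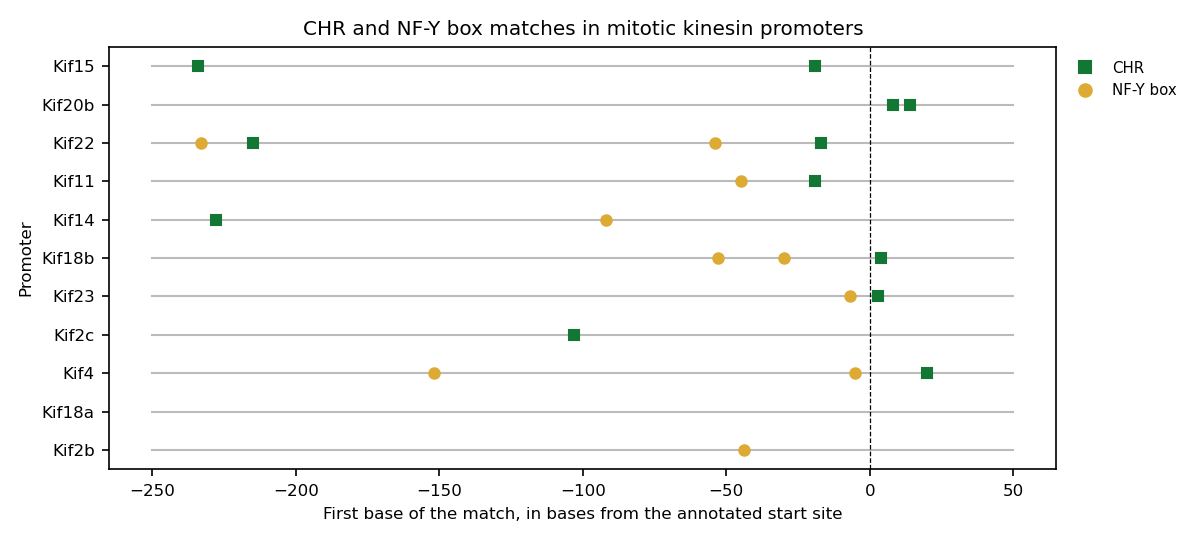
Position of CHR (green squares) and NF-Y box (CCAAT, yellow circles) matches in the promoters of the 11 mitotic kinesins found in the RefSeq table, in bases from the annotated start site (x axis, dashed line at the start). Grey lines span 250 bases before to 50 after the start. Of the 12 CHR matches, 8 lie within 50 bases of the start.

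Transport motors carry vesicles, organelles and mRNA. Of 13 transport kinesins and 5 dynein-1 subunits, 5 fell and 1 rose (33.3%, median -0.015), beside 1 of 12 mitotic kinesins (8.33%) and 17.1% of all genes. On the lower side alone the share was 27.8% of transport motors, 8.33% of mitotic kinesins and 10.1% of all genes. With dim genes left out, 5 of 16 transport motors and 2 of 11 mitotic kinesins were lower, beside 2351 of 13819 genes. The median of the transport motors was 0.014 without WT replicate 1 and between -0.054 and -0.020 without any other array. Split by direction of travel, 1 kinesin rose and 2 fell (median -0.0028 over 13), while 3 dynein-1 subunits fell (median -0.24 over 5). The mitotic count leaves out Cenpe, which fell but is not a member. The difference between mitotic and transport motors was not tested. The count of 6 transport motors was 3 without WT replicate 1, 3 without WT replicate 2 and 1 in the fit over all rows.

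Kif3c, a neuronal partner of kinesin-2, read 7.65 and 7.60 in WT and 7.21 and 7.27 in Zip13KO. Both Zip13KO arrays were low, at -0.38 (SE 0.08, adjusted p = 0.00188). Its family members Kif3a and Kif3b, the usual kinesin-2 pair of cilia and organelle traffic, were at 0.14 and 0.14 and did not pass, though Kif3b did without Zip13KO replicate 1 (0.30, adjusted p = 0.0296).

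The 3 conventional kinesin-1 heavy chains read differently from each other. Kif5a, a neuronal form, read 6.83 and 6.73 in WT and 7.07 and 7.15 in Zip13KO. It was higher without overlap, at 0.33 (SE 0.08, adjusted p = 0.00751), but lost the call on leaving out WT replicate 2 (0.28, adjusted p = 0.0682) and in the fit over all rows (0.0802). Kif5c, also neuronal, read 6.55 and 6.50 in WT and 6.33 and 6.22 in Zip13KO. It was lower without overlap at -0.25 (adjusted p = 0.0404). It lost the call without WT replicate 1 (adjusted p = 0.183), WT replicate 2 (0.0824) or Zip13KO replicate 2 (0.224), in the fit over all rows (0.171) and after centring on blocks of neighbouring genes (0.144). Kif5b, the form found in most cells, read 10.64 and 10.56 in WT and 10.52 and 10.66 in Zip13KO. Its groups overlapped, with a difference of -0.01 (95% interval -0.15 to 0.14). Its second row was at -0.18.

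Of the other cargo kinesins none passed. Kif1b, which carries mitochondria and synaptic vesicle precursors, was at -0.21 (adjusted p = 0.0814), with Zip13KO below WT on every array, and passed without Zip13KO replicate 2 (-0.30, adjusted p = 0.0178). Kif1c, a fast motor of fibroblasts that also acts on the Golgi, was at -0.0028 with overlapping groups (8.75 and 8.70 in WT, 8.56 and 8.89 in Zip13KO). Kif1a, Kif13a, Kif13b, the endosome motor Kif16b and Kif17 lay between -0.02 and 0.15.

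**Figure D4:**
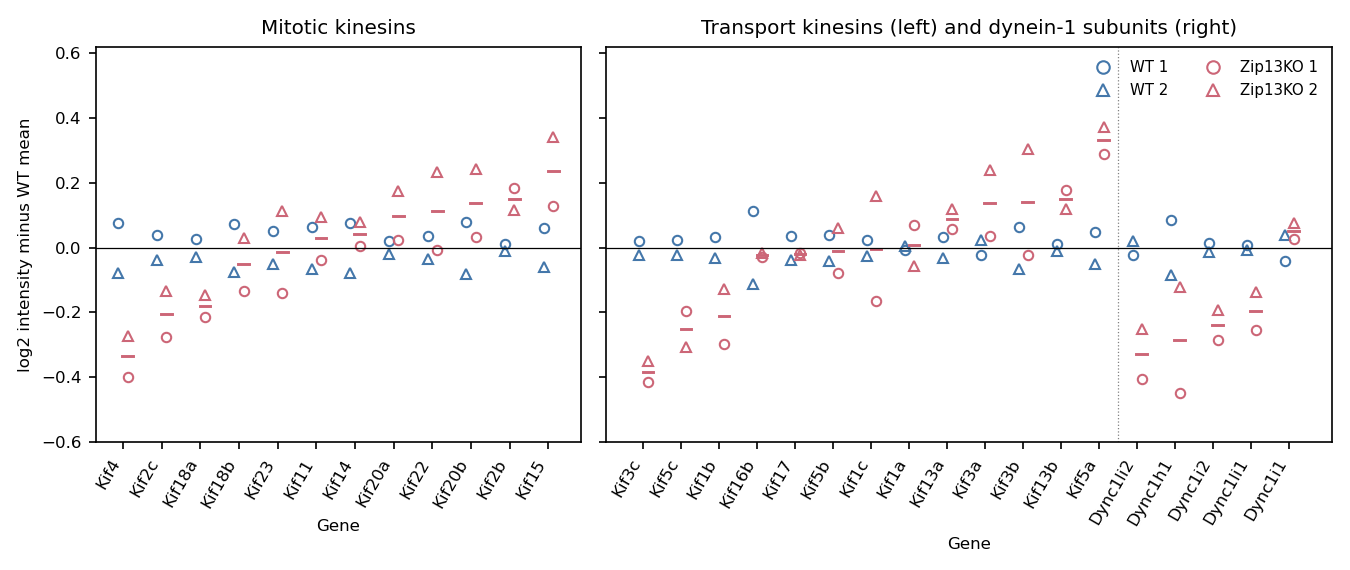
Log2 intensity of each mitotic kinesin (left panel) and transport motor (right panel; dynein-1 subunits right of the dotted line) on each array, as the distance from the WT mean (y axis), ordered by difference. Blue is WT and red Zip13KO, circles are replicate 1 and triangles replicate 2, and red lines are Zip13KO means. In most mitotic kinesins the red triangle is above the red circle, and 4 of 5 dynein-1 subunits have both red points below WT.

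Dynein-1 is the main motor towards the minus end and is built on 2 heavy chains with intermediate, light intermediate and light chains. The light intermediate chain Dync1li2 read 9.90 and 9.94 in WT and 9.51 and 9.67 in Zip13KO. It was lower without overlap, at -0.33 (SE 0.07, adjusted p = 0.00344), and did not pass in the fit over all rows (0.0686). The heavy chain Dync1h1, which holds the motor, read 9.14 and 8.97 in WT and 8.60 and 8.93 in Zip13KO. The second Zip13KO array lay just under WT, and the difference was -0.29 (SE 0.10, adjusted p = 0.0494). This call is at the edge: it was lost in 8 of 14 alternatives, among them without Zip13KO replicate 1 (-0.12, adjusted p = 0.510) and without WT replicate 1 (-0.20, adjusted p = 0.291).

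The intermediate chain Dync1i2, which links the motor to dynactin, read 9.98 and 9.95 in WT and 9.68 and 9.77 in Zip13KO. Zip13KO was lower without overlap, at -0.24 (SE 0.07, adjusted p = 0.0224). The call was lost on leaving out WT replicate 1 (adjusted p = 0.133), WT replicate 2 (0.0755) or Zip13KO replicate 1 (0.126), and in the fit over all rows (0.115). Dync1li1 read 9.97 and 9.95 in WT and 9.71 and 9.83 in Zip13KO, also lower without overlap, at -0.20 (adjusted p = 0.0683). It passed without Zip13KO replicate 2 (-0.25, adjusted p = 0.0219), with dim genes left out (0.0456) and after a further quantile normalization (0.0491). The neuronal intermediate chain Dync1i1 was at 0.05.

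Dynein light chains, which serve both dyneins and other complexes, gave 1 call in 5. Dynlt3 read 9.01 and 9.13 in WT and 8.43 and 8.51 in Zip13KO. Both Zip13KO arrays were clearly low, at -0.60 (SE 0.08, adjusted p = 1.47e-05), or 1.52-fold lower. Its family relatives of the Dynlt1 type stand on 3 rows that each list the same 4 near-identical copies and were not members. Those rows differed by -0.47 to -0.42 (adjusted p from 0.0112 to 0.0180 in the fit over all rows), with no overlap on any of them, and their signal cannot be assigned to 1 copy. Dynll1 read 9.50 and 9.48 in WT and 9.30 and 9.29 in Zip13KO. It was lower without overlap at -0.20 (adjusted p = 0.0657) and passed with dim genes left out (0.0437). Dynlrb1, a roadblock chain, was at -0.10 (11.20 and 11.15 in WT, 11.04 and 11.11 in Zip13KO), Dynll2 at -0.02 and Dynlrb2 at 0.13.

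Dynein-2 moves cargo inside cilia. Its light intermediate chain Dync2li1 read 6.76 and 6.82 in WT and 6.41 and 6.50 in Zip13KO, lower without overlap at -0.34 (SE 0.08, adjusted p = 0.00626), and did not pass in the fit over all rows (0.0740). The heavy chain Dync2h1 read 6.68 and 6.66 in WT and 6.64 and 6.76 in Zip13KO, with overlapping groups and a difference of 0.03. Markers of multiciliated cells had a summed intensity of 918 to 979 in WT and 922 to 949 in Zip13KO.

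Taking Dync and Dynl genes together, 5 of 12 fell and none rose in limma, or 41.7% lower against 10.1% of all genes. With dim genes left out, 7 of 10 fell, beside 2351 of 13819 genes. That filter kept Dync2li1 through its WT arrays alone (6.76 and 6.82), since both Zip13KO values (6.41 and 6.50) were below the array median. At an unadjusted p under 0.05, 7 of the 12 were lower and 0 higher, against 14.8% and 11.1% of all genes. In 8 of the 12 both Zip13KO arrays lay below both WT arrays, as in 27.3% of all genes. The count was 3 without WT replicate 1, 3 without Zip13KO replicate 1 and 1 in the fit over all rows.

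Among the remaining kinesins, the pair of Kif21 genes rose. They encode kinesin-4 motors that pause microtubule growth. Kif21a read 6.85 and 6.81 in WT and 7.32 and 7.50 in Zip13KO. Both Zip13KO arrays were high, at 0.58 (SE 0.08, adjusted p = 6.33e-05). Kif21b read 7.11 and 7.06 in WT and 7.45 and 7.61 in Zip13KO, again without overlap, at 0.44 (SE 0.08, adjusted p = 8.71e-04). Both passed under each alternative run.

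Kif26b, a kinesin that acts in Wnt5a signalling, read 6.77 and 6.88 in WT and 6.61 and 6.54 in Zip13KO. It was lower without overlap at -0.25 (adjusted p = 0.0457), a call lost without WT replicate 2 (adjusted p = 0.298), Zip13KO replicate 1 (0.0510) or Zip13KO replicate 2 (0.176) and in the fit over all rows (0.181). The depolymerising kinesin Kif2a was at 0.14 and passed without Zip13KO replicate 1 (0.26, adjusted p = 0.0360). Kif7, a regulator of Hedgehog signalling at the ciliary tip, was at 0.14 on its kept row and at -0.17 on its other row. Kif6, Kif9, Kif12, Kif19a, Kif24, Kif26a and Kif27 lay between -0.15 and -0.0019, and none passed.

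**Figure D5:**
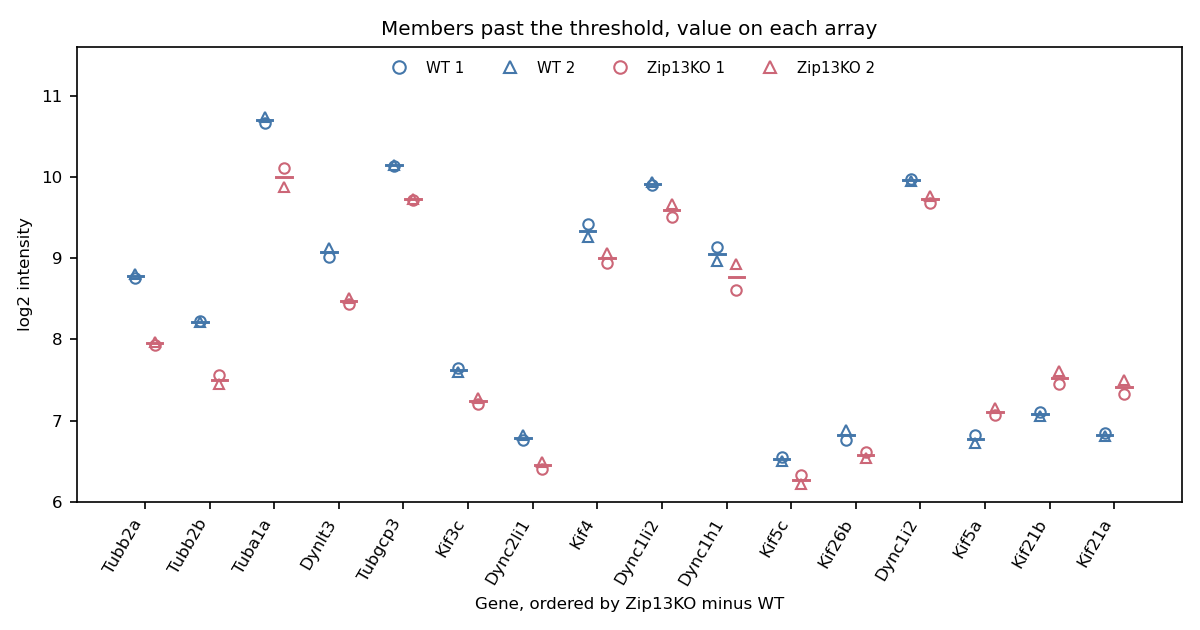
Log2 intensity (y axis) of the 16 members past the threshold on each array, ordered by difference. Circles are replicate 1 and triangles replicate 2, blue for WT and red for Zip13KO, and short lines are group means. The groups do not overlap for any of the 16, and the gap is narrowest for Dync1h1 (8.97 in the lower WT array, 8.93 in the higher Zip13KO array). Heights of different genes are not comparable.

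Genes that work with these motors and tracks, but that the symbol rule does not take, form 4 lists. Of their 102 measured genes, 22 fell and 7 rose (28.4% against 17.1% of all genes, median -0.072). With dim genes left out, 32 of 95 passed and 24 of these were lower, beside 3978 and 2351 of 13819 genes. Most partner genes exceeded the array median on 2 or more arrays: 15 of 15 in the kinesin list and 19 of 20 in the dynactin list. The same held for 23 of 26 tubulin enzymes and 38 of 41 microtubule-associated proteins. The shares of all genes given below for each list are not matched for brightness. The count of 29 was 16 without WT replicate 1 and 11 in the fit over all rows.

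Dynactin subunits and dynein adaptors gave 6 lower and none higher of 20 in limma (median -0.13; 7 and 0 at an unadjusted p under 0.05), against 10.1% lower of all genes, or 14.8% at an unadjusted p. Both Zip13KO arrays lay below WT for 14 of the 20, as for 27.3% of all genes. Dctn6, at the pointed end of dynactin, read 9.51 and 9.43 in WT and 8.61 and 8.60 in Zip13KO, well apart, at -0.87 (SE 0.07, adjusted p = 8.53e-08). Bicd2, an adaptor that links dynein to Rab6 vesicles of the Golgi, read 8.40 and 8.36 in WT and 7.38 and 7.80 in Zip13KO. The Zip13KO arrays were low but unlike each other, at -0.79 (SE 0.10, adjusted p = 2.28e-05). Hook3, an adaptor of dynein at the Golgi, fell by 0.49 (SE 0.08). These 3 passed under each alternative run.

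Kinesin light chains, other kinesins and cargo adaptors gave 4 lower and none higher of 15 in limma (median -0.077; 5 and 1 at an unadjusted p under 0.05), against the same 10.1% and 14.8% lower of all genes. The spindle kinesin Cenpe, given above with the mitotic kinesins, was 1 of the 4. The minus-end motor Kifc3 fell by 0.39, the kinesin scaffold Mapk8ip3 by 0.31 and the kinesin-2 adaptor Kifap3 by 0.29. Kifap3 kept its call in 10 of 14 alternatives, and Kifc3 and Mapk8ip3 each in 12 of 14. None of the 3 passed without WT replicate 1 or in the fit over all rows, where Kifc3 stood at -0.29 without that replicate, Mapk8ip3 at -0.17 and Kifap3 at -0.28. Of 41 microtubule-associated proteins 10 fell and none rose in limma (median -0.072; 10 and 1 at an unadjusted p under 0.05), where 10.1% of all genes fell and 7.00% rose, or 14.8% and 11.1% at an unadjusted p. Dclk1, a kinase of the doublecortin family, read 9.44 and 9.49 in WT and 7.93 and 8.12 in Zip13KO, far apart, at -1.44 (SE 0.08, adjusted p = 3.10e-10). The stathmins Stmn2 and Stmn1, which bind free tubulin, fell by 0.72 and 0.59, and Stmn2 did not pass in the fit over all rows (adjusted p = 0.0539).

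Tubulin folding and modifying enzymes gave 7 higher and 2 lower of 26 (median 0.038), where 7.00% of all genes were higher and 10.1% lower. These 7 were the only higher calls among the 102 partner genes in the limma fit over genes. The higher calls among partner genes numbered 3 without WT replicate 1, 3 without WT replicate 2, 3 without Zip13KO replicate 2, 4 after centring on blocks of neighbouring genes and 1 in the fit over all rows. Arl2, a small GTPase of tubulin assembly, read 9.03 and 9.07 in WT and 9.49 and 9.39 in Zip13KO, higher without overlap at 0.39 (SE 0.07, adjusted p = 7.64e-04). Ttll4, which adds glutamates to tubulin, rose by 0.30, though not without WT replicate 2 (0.16, adjusted p = 0.368). Sirt2, a deacetylase that acts on tubulin, rose by 0.29, though not once WT replicate 1 was left out (adjusted p = 0.0815). Ttll7, another glutamylase, fell by 0.32 and Tbca, a chaperone of beta tubulin, by 0.29, and Tbca did not pass without WT replicate 2 or Zip13KO replicate 2. In the fit over all rows Ttll4, Sirt2, Ttll7 and Tbca did not pass, with adjusted p from 0.0589 to 0.211.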

How the data were processed

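RNA of 4 fibroblast samples was measured on Affymetrix Mouse Gene 2.0 ST arrays. The authors deposited 1 table of linear intensity values, made with Affymetrix Expression Console and RMA, per the submitters' processing notes; it has 41345 rows, with array intensity from 21.8 to 10826. Rows were named from the platform annotation: 23521 have 1 symbol, 1814 several and 16010 none, and 23328 matched RefSeq (GRCm38.p6) by gene ID. The brightest row of each of 22180 genes was kept.

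Log2 values, with no pseudocount, were fitted by limma 3.58.1 in R 4.3.3 (lmFit, eBayes with trend, 2 residual degrees of freedom) with Benjamini-Hochberg adjustment over all genes and a threshold of 0.05. The design had provided for log2 or linear values, and the files held linear ones. In simulated data from these arrays, 50 genes shifted by 0.5 (log2) were recovered at 98% and 50 shifted by 1 at 100%, with 10 false calls of 209. The simulated noise was independent between genes, without the array shifts shared by many genes seen above. Shifts smaller than 0.5 were not tried. The simulation therefore cannot give the rate of false calls or the power in the real data. Array replicates differed with an SD over genes of 0.118 (WT) and 0.125 (Zip13KO), and 2 arrays a group limit the precision.

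Named genes were all members past the threshold, the brightest of each role, the smallest p of a role with no call, and up to 3 genes a direction with the largest differences past the threshold in each partner list and among dividing cell markers. Other members are named to account for all of them, with values seen. Cenpe, Kifc1 and Kifc5b were also named with values seen. Members and lists were chosen with earlier results of these data known. Alternatives were a replicate block, a filter on low values, further quantile normalization, median centring, no trend, robust variance, averaging each gene's rows, fitting all rows and leaving out each array in turn. Promoters came from RefSeq (GRCm38.p6), and 3 motifs were searched on both strands. Sequences of members on chromosome 18 were not used here.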

Additional observations from a re-analysis of the deposited data

How the results depend on the processing

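Of the 16 member calls, 8 held in every one of the 14 alternatives run: Dynlt3, Kif21a, Kif21b, Kif3c, Tuba1a, Tubb2a, Tubb2b and Tubgcp3. No difference of a gene named here changed sign as a call. With all rows fitted and adjusted, 1806 genes passed over the table in place of 3786, and 8 members, 0 mitotic kinesins, 1 transport motor, 1 dynein gene, 11 partner genes and 2 dividing cell markers passed. That fit tests more rows and estimates the spread over all of them. Mitotic kinesins past the threshold numbered 3 after the filter on low values, 3 after further quantile normalization and 2 with robust variance. Leaving out each array gave 2921 to 3808 genes, 13 to 19 members, 1 to 3 mitotic kinesins, 3 to 7 transport motors, 3 to 6 dynein genes, 4 to 6 tubulins, 16 to 28 partner genes and 3 to 6 dividing cell markers.

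The replicate numbers do not pair the samples: same-numbered deviations correlated at r = -0.158 with 2 pairs. With the replicate number as a block, 3364 genes and 15 members passed, and Dync1i2 was the member call lost (adjusted p = 0.0814). A crossed replicate block, added after seeing the data, gave 5208 genes, 24 members, 4 mitotic kinesins and 8 dividing cell markers. Centring on blocks of 50 neighbouring genes, also added after seeing the data, gave 3352 genes and 14 members. Genes near background (11 members did not exceed the array median on 2 arrays) can show smaller differences than the RNA had.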
